A study of Mus musculus with 22 samples.

Results

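Tyrosine is broken down in the liver by a short chain of enzymes, and the RNA and DNA methylation of the 5 genes that encode it, Tat, Hpd, Hgd, Gstz1 and Fah, were examined in mouse embryos that lack Rlf. Hpd was selected on its RNA difference between the genotypes in these same livers, and the other 4 genes were included as the remaining steps of its pathway. The 5 genes are a small part of the 37991 in the RNA count tables, and the promoters of all 5 are among the 21074 protein-coding promoters with enough coverage for a methylation test in E14.5 liver. The mice were of Line3, an FVB/NJ line with a multi-copy GFP reporter transgene that every animal carried. Wild-type embryos were compared with littermate or stage-matched embryos homozygous for the MommeD28 allele of Rlf, a null allele made by chemical mutagenesis, which removes the widely spaced zinc-finger protein from every cell of the animal. The homozygous state is lethal near the time of birth. Whole genome bisulphite sequencing (WGBS), which reads the percent of cytosines methylated at each CpG, covered 2 wild-type and 2 mutant libraries each of E10.5 whole embryo (all male), E14.5 liver (replicate 1 male, replicate 2 female) and E18.5 liver (all female). RNA-seq covered 3 wild-type and 3 mutant E14.5 livers, of which replicates 1 and 2 were male and replicate 3 female. Stage and tissue changed together between E10.5 and E14.5 and cannot be told apart, and the sexes were not balanced between the WGBS stages.

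Tyrosine aminotransferase (Tat) opens the pathway by removing the amino group of tyrosine. 4-hydroxyphenylpyruvate dioxygenase (Hpd) turns the resulting keto acid into homogentisate, homogentisate dioxygenase (Hgd) opens its ring, the isomerase Gstz1 rearranges maleylacetoacetate, and fumarylacetoacetase (Fah) releases fumarate and acetoacetate. The pathway is a classic liver function that matures late in development, and loss of Fah, Tat or Hpd causes the inherited tyrosinaemias, while loss of Hgd causes alkaptonuria. The fetal liver at E14.5 is also the main site of red cell formation, so hepatoblasts are only part of the RNA measured. Promoters rich in CpG are usually free of methylation, whereas CpG-poor promoters of tissue-restricted genes are often methylated outside the tissue that uses them.

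In the mm9 mouse genome (NCBIM37), Tat lies on the plus strand at chr8:112514337-112523703, Hpd on the minus strand at chr5:123621816-123632734, Hgd on the plus strand at chr16:37580239-37632106, Gstz1 on the plus strand at chr12:88488668-88505673 and Fah on the minus strand at chr7:91733669-91755232. The 250 bases upstream of the transcription start site (TSS) are shown for the 3 genes whose promoters were methylated, because their few CpGs, in capitals, lie next to the start. They are only part of the sites behind the promoter values below, which cover 1 kb on either side of the TSS. The sequences are written 5′ to 3′ on the gene's own strand from the reference genome, not from FVB DNA, and hold 7 CpGs for Hpd (chr5:123632735-123632984, minus strand), 1 for Hgd (chr16:37579989-37580238, plus strand) and 3 for Tat (chr8:112514087-112514336, plus strand).
Hpd: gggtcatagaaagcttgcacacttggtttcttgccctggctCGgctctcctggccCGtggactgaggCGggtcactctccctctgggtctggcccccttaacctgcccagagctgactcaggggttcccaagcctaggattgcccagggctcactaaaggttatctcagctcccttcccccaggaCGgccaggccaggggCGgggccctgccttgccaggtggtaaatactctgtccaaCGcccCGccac
Hgd: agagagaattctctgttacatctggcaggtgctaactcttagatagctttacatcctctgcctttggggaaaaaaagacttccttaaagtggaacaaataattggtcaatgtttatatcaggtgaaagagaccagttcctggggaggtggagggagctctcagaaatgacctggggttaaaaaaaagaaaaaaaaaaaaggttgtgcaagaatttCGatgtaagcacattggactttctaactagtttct
Tat: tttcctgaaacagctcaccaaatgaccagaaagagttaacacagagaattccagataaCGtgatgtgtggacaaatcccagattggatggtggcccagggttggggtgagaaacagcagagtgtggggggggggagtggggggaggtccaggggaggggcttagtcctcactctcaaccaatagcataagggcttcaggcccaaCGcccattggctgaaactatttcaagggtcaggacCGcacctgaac
The median over 22362 promoters was 9 CpGs in the same window, and Gstz1 had 22 and Fah 15. The letters TATAAA, searched on both strands, were found in 12.3% of all promoters and here only upstream of Hgd, on the reverse strand with its first base at -139. The letters CCAAT, also on both strands, were in 34.8% of promoters. They occurred 3 times upstream of Tat, 2 times upstream of Hgd and 1 time upstream of Fah, and were not in these windows of Hpd or Gstz1.

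RNA of Hpd was close to absent from the mutant livers, whereas RNA of the later enzymes Hgd, Gstz1 and Fah was abundant in both genotypes. Hpd had 628, 395 and 495 counts in wild type against 5, 4 and 7 counts in mutants, out of library totals of 12928313 to 14621004 counts. In CPM, the count scaled for library depth with TMM factors, these were 47.9, 26.1 and 34.7 against 0.388, 0.289 and 0.491. The groups were far apart, and the lowest wild-type liver, replicate 2, was still well above every mutant. The means were 36.2 ± 10.99 CPM in wild type and 0.389 ± 0.101 CPM in mutants (SD, n = 3 each), a 93.1-fold difference. From the summed counts of 1518 and 16, the ratio after scaling for depth with the TMM factors was 91.5. Its exact 95% interval of 56.2 to 160.5 covers counting error only. On the log2 scale the difference fitted by edgeR was -6.50 (SE 0.32), the lowest of the 14183 genes tested. Because this contrast selected Hpd, these values are a description and carry no test.

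**Figure D1:**
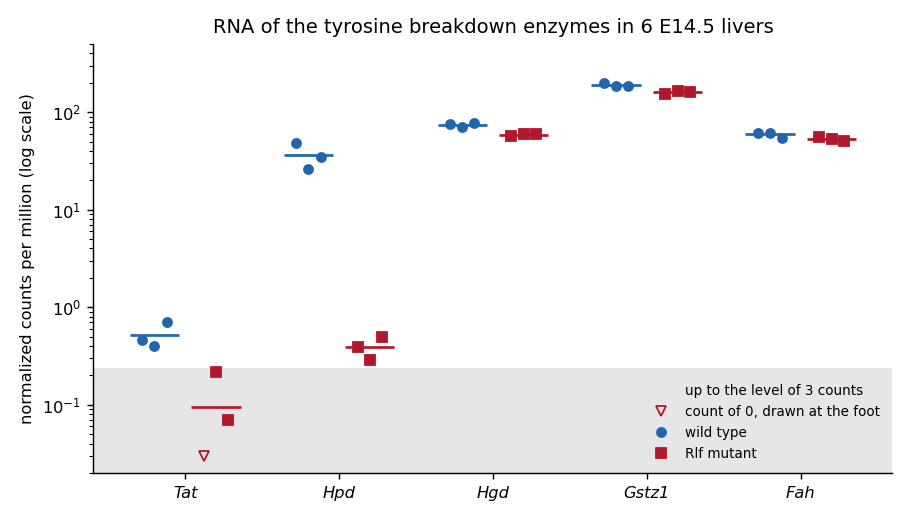
RNA of the 5 tyrosine breakdown genes in 3 wild-type and 3 mutant E14.5 livers, in CPM on a log axis, with a point per liver, a line at each mean, a count of 0 drawn as a triangle at the foot and grey shading up to the level of 3 counts. Hpd sits between 26.1 and 47.9 CPM in wild type and between 0.289 and 0.491 in mutants, while the 2 genotypes lie close together for Hgd, Gstz1 and Fah, and Tat is near the counting floor in both.

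Tat, the enzyme before Hpd, was barely detected in either genotype. It had 6, 6 and 10 counts in wild type and 0, 3 and 1 in mutants, and it did not pass the filter on low counts. The wild-type mean was 0.519 ± 0.161 CPM and the mutant mean 0.0955 ± 0.110 CPM (SD, n = 3), where a count of 3 corresponds to between 0.198 and 0.233 CPM. The 3 mutants lay below the 3 wild-type livers. The summed counts of 22 and 4, scaled in the same way, give a ratio of 5.30 with an exact 95% counting interval of 1.80 to 21.2. When the filter was dropped, the edgeR quasi-likelihood test gave a log2 difference of -2.30 with a Benjamini-Hochberg adjusted p of 0.1201, so the difference did not pass at this depth.

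Of the later enzymes, Hgd fell in the mutants and Gstz1 and Fah did not pass the test over all genes. Hgd, which opens the ring of homogentisate, measured 75.6, 69.9 and 77.3 CPM in wild type and 56.7, 60.4 and 59.5 CPM in mutants, without overlap. Its log2 difference was -0.33 (SE 0.06; edgeR quasi-likelihood test, Benjamini-Hochberg adjusted p = 0.0309 over 14183 genes). This call was lost when any library other than wild-type replicate 2 was left out (adjusted p from 0.0658 to 0.130 by edgeR) and among the male livers alone (0.249). Gstz1, the most abundant of the 5, measured 199, 185 and 185 CPM in wild type and 153, 167 and 160 CPM in mutants, also without overlap, with a log2 difference of -0.25 (SE 0.06, edgeR adjusted p = 0.0880). With the replicate number as a block its edgeR adjusted p was 0.0391, past the threshold of 0.05, and with DESeq2 it was 0.0367. Fah, the last enzyme, measured 60.7, 61.7 and 54.8 CPM against 55.9, 52.6 and 50.7 CPM, with 1 mutant above the lowest wild-type liver and a log2 difference of -0.15 (SE 0.07, edgeR adjusted p = 0.348). The block and DESeq2 changed no call of Hgd or Fah. P-values here measure the spread between these samples, whose separate litters the labels do not give.

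Over all genes tested, 1.39% were called between the genotypes, 0.691% in the lower direction, and 3.24% with the replicate block. All 3 mutants were below all 3 wild-type livers for Hpd, Hgd and Gstz1 and not for Fah, against 9.84% of the genes that passed the filter on low counts. Hpd was selected on this contrast, and Tat, which had the same order, did not pass the filter and is not part of that share. By size of decrease, Hgd stood at rank 668, Gstz1 at 1077 and Fah at 2050 of the 14183 genes. Per kb of exon, which allows levels to be set between genes, the wild-type means were 0.216 CPM for Tat, 17.0 for Hpd, 28.4 for Hgd, 115 for Gstz1 and 28.1 for Fah. Hgd, at 28.4 ± 1.48, and Fah, at 28.1 ± 1.78 (SD, n = 3), did not differ beyond their spread. In mutants the order became Tat 0.0397, Hpd 0.183, Hgd 22.5, Fah 25.2 and Gstz1 96.6, where the Tat mean is below the level of 3 counts.

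None of the other pathway genes reported here was called. Of 21 other genes of phenylalanine and tyrosine metabolism, 19 passed the filter on low counts and 0 were called by edgeR, with or without the block, or by DESeq2, and 10 of the 19 had values below 0. By unadjusted edgeR p under 0.05, 4 of the 19 passed (Dnajc12, Gchfr, Pcbd1 and Ddc), against 14.6% of all genes tested. The median log2 difference of the 19 was -0.0055, against -0.0017 over all genes. The lowest values were those of Dnajc12, a co-chaperone of the aromatic amino acid hydroxylases (-0.34, edgeR adjusted p = 0.134), Gchfr, a regulator of biopterin synthesis (-0.25, 0.174), the pterin dehydratase Pcbd2 (-0.22, 0.372) and the aromatic amino acid transporter Slc16a10 (-0.19, 0.466). The highest were the Hpd relative Hpdl (0.58, 0.461), the decarboxylase Ddc (0.40, 0.316), the amino acid oxidase Il4i1 (0.33, 0.671) and Gch1, the entry enzyme of biopterin synthesis (0.28, 0.441). Th and Tyr, which use tyrosine to make catecholamines and melanin, did not pass the filter.

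**Figure D2:**
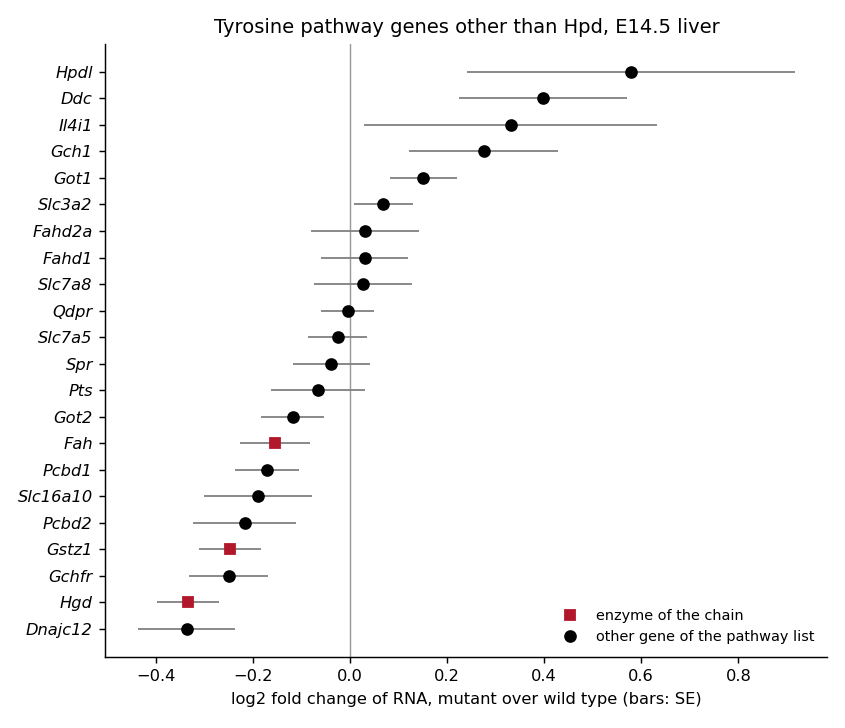
Log2 difference in RNA, mutant minus wild type, on the x axis for Hgd, Gstz1 and Fah (squares) and 19 other genes of phenylalanine and tyrosine metabolism (circles) in E14.5 liver, with bars of 1 SE. The genes lie between -0.34 and 0.58, and Hpd, at -6.50, is not drawn.

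Among enzymes that break down other amino acids, 43 of 45 passed the filter, 3 fell and 1 rose, 9.30% called against 1.39% of all genes, with a median log2 difference of -0.09. Haao, a dioxygenase of the kynurenine branch of tryptophan breakdown, fell from 33.1 to 11.8 CPM (log2 -1.49, SE 0.15, edgeR adjusted p = 0.000541). Hal, which takes ammonia from histidine, fell by 0.90 on the log2 scale (edgeR adjusted p = 0.0373), and Ivd, an isovaleryl-CoA dehydrogenase, fell by 0.27 (0.0319). Csad, which acts in taurine synthesis, rose by 0.46 (0.0230). Haao was called in every alternative. Without the filter on low counts, 6 of the 45 were called lower and 1 higher, where 532 of 21942 genes were called. The count of 4 fell to 1 without wild-type replicate 1 or 3 or mutant replicate 1 or 2, and to 2 without mutant replicate 3 and in males alone, with Hal lost in each of the 6 leave-outs (edgeR adjusted p from 0.0509 to 0.131), Ivd in all but that of wild-type replicate 2 and Csad in 4. Without wild-type replicate 2, Otc (edgeR adjusted p = 0.0265) was called in place of Hal, and with sex as a covariate Ivd was lost (0.0523 by edgeR). With the replicate block, the urea cycle enzyme Otc was called as well (edgeR adjusted p = 0.0368). Of 15 hepatocyte transcription factors tested, 0 were called by edgeR, 3 had an unadjusted p under 0.05, and 3 had values below 0, with a median of 0.12.

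The RNA values came from whole livers, in which fewer hepatoblasts and less RNA per hepatoblast cannot be told apart. Markers of hepatoblasts, the cells that use this pathway, were present in every liver. Their 14 genes summed to between 61724 and 73022 CPM in wild type and between 75637 and 87387 CPM in mutants, higher in every mutant, and 1 of them, transferrin (Trf, 0.46, edgeR adjusted p = 0.0289), rose, a call lost without wild-type replicate 1 or 3 or mutant replicate 1 or 2 (0.0538 to 0.121 by edgeR). All but 1 of the 14 had values above 0, 5 had an unadjusted edgeR p under 0.05, against the 14.6% of all genes, and 2 were called by DESeq2 and 3 without the filter on low counts. Erythroid markers, 10 genes, summed to between 29225 and 54007 CPM in wild type and between 36457 and 39496 CPM in mutants, and 9 of the 10 had values below 0. By edgeR, 0 erythroid genes were called and 1 had an unadjusted p under 0.05, and 2 were called lower without wild-type replicate 2. Among the wild-type livers, replicate 2 had the lowest erythroid sum, the lowest hepatoblast sum and the lowest Hpd value. Of the 7 macrophage, 6 endothelial and 6 mesenchymal markers, 0 were called by edgeR and 3, 4 and 1 had an unadjusted p under 0.05. Their sums were 572 to 624, 268 to 295 and 647 to 880 CPM in wild type and 591 to 592, 297 to 347 and 696 to 1114 CPM in mutants. With the replicate block the macrophage receptor gene Marco (log2 -0.57, edgeR adjusted p = 0.0235) and the platelet integrin gene Itga2b (0.31, 0.0322) passed as well, as they did without wild-type replicate 2 (edgeR adjusted p = 0.0303 and 0.0374) and without the filter on low counts (0.000271 and 0.0119), and Itga2b with DESeq2 (0.0346). Without that filter 1 endothelial and 1 mesenchymal marker were called higher too, as was 1 mesenchymal marker without mutant replicate 2. Of 4 megakaryocyte markers Pf4 rose, with sums of 457 to 478 CPM in wild type and 541 to 605 CPM in mutants. All 4 had values above 0 and an unadjusted edgeR p under 0.05, against 14.6% of all genes. Of 4 neutrophil markers Elane, Ltf and S100a8 fell and Mpo did not, with sums of 483 to 688 and 436 to 507 CPM, where 1.39% of all genes were called. Pf4 was not called in males alone or without wild-type replicate 3 or mutant replicate 3, and none of the 3 neutrophil genes was called without mutant replicate 1 or 3, while with DESeq2 S100a8 was the only 1 of them called. Elane was lost as well without any 1 wild-type replicate and with size factors by relative log expression (0.0502 by edgeR), and Ltf without mutant replicate 2. Kidney and gut markers, of which 2 of 4 passed the filter and 0 were called (0 at an unadjusted p under 0.05), summed to 16.3 to 19.1 and 15.7 to 17.8 CPM. The part of these cell types in the Hpd values was not tested. Rlf itself measured 70.4 ± 1.73 CPM in wild type and 74.6 ± 6.28 CPM in mutants (SD, n = 3, log2 0.08, edgeR adjusted p = 0.646), so the RNA level of this null allele does not check the genotype labels.

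The genes whose log2 CPM over the 6 livers was most like that of Hpd, by Pearson r among 13633 genes, were H6pd (0.998), Snx11 (0.998), Timd2 (0.997), Dusp11 (0.997) and Rfc5 (0.997). The 6 livers form 2 separate groups, and the sizes of the step between them differed widely among these genes. Timd2, a ferritin receptor of the TIM family, went from 67.5 to 18.8 CPM, a log2 difference of -1.84, and H6pd, Snx11, Dusp11 and Rfc5 had log2 differences from -0.38 to -0.17. Among the pathway members the r with Hpd was 0.963 for Hgd, 0.937 for Gstz1 and 0.736 for Fah. All these r values mostly follow the step between the genotypes, the contrast that selected Hpd. They largely restate the genotype differences and are not separate evidence of a shared change.

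Near Hpd, the only other protein-coding genes with a TSS within 50 kb were Setd1b, a histone methyltransferase gene 40.5 kb downstream, and Psmd9, a proteasome assembly factor gene 45.5 kb upstream. Psmd9 measured 91.5, 82.0 and 86.7 CPM in wild type and 70.5, 73.7 and 68.7 CPM in mutants. It fell by 0.29 on the log2 scale (edgeR adjusted p = 0.0470), a call lost with sex as a covariate (0.0618), in males alone (0.364) and when any library other than wild-type replicate 2 was left out (0.0758 to 0.193, all by edgeR). Setd1b had a log2 difference of -0.01 (0.966). The neighbours of the other members were Gtf2e1 and Rabl3 near Hgd, and Pomt2, which starts 0.184 kb from Gstz1 on the opposite strand, with edgeR adjusted p values of 0.598, 0.608 and 0.791. Marveld3 and Chst4 near Tat, and Ngb near Gstz1, did not pass the filter, and Fah had no such neighbour. Reads were counted without strand, so those from overlapping antisense RNA cannot be told apart.

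Methylation of the promoters was measured over the TSS and 1 kb on either side, summing the reads of those CpGs that all 4 libraries of a stage covered at least 6 times. The libraries averaged 16.8 to 19.0 reads per covered CpG at E10.5, 31.4 to 35.4 at E14.5 and 17.6 to 18.3 at E18.5, so E14.5 values rest on the most reads. In wild-type E14.5 liver the median promoter was 9.23% methylated, and 27.5% of promoters were above 50%. The promoters of the 5 genes fell into 2 kinds. Those of Gstz1, with 118 covered CpGs, and Fah, with 67, ranged from 2.85 to 7.48% and from 1.90 to 4.80% over all 12 libraries. For Fah the mutant embryos at E10.5, at 1.90 and 2.12%, lay below the wild-type embryos at 2.29 and 2.39%. The share of all promoters in that order is not given. Its mutant E14.5 livers, at 4.02 and 4.80%, lay above the wild-type livers at 3.67 and 3.94%, an order found in 36.3% of all promoters. Its level and order depend on the annotated start used, since around the 5′ end of the gene, upstream of that TSS, the libraries ranged from 4.03 to 13.1%, and the 2 mutant E14.5 livers, at 9.45 and 10.6%, overlapped the wild-type livers at 10.2 and 13.1%. Those of Tat (25 covered CpGs in E14.5 liver), Hpd (32) and Hgd (15) were CpG-poor against a median of 63 and were methylated at every stage.

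In wild type, the 3 CpG-poor promoters lost methylation between E10.5 embryo and E14.5 liver. Over the CpGs covered in all 6 wild-type libraries, Hgd fell by 31.5 points (edgeR quasi-likelihood adjusted p = 7.22e-05), Hpd by 18.53 points (0.000138) and Tat by 16.7 points (0.000305), among 38.9% of all promoters that fell. Without the female E14.5 replicate 2, which leaves 1 male liver at E14.5 against the male embryos, the falls were 31.8, 17.4 and 19.5 points. Fah rose by 1.46 points (0.0224), among 16.3% that rose, a call lost without E10.5 replicate 1 (0.0833), E10.5 replicate 2 (0.0571) or E14.5 replicate 1 (0.0822), and Gstz1 differed by 1.70 points (0.118). Between E14.5 and E18.5 liver no promoter of the 5 was called (0.0496% of all promoters rose). The unadjusted edgeR p of each was above 0.05, where 20.5% of all promoters were under it. Hpd differed by 4.42 points (edgeR adjusted p = 0.360). Gene bodies fell in methylation at all 5 genes between embryo and E14.5 liver, as did 91.5% of all bodies. Of the 5, Hpd fell by 10.46 points, the least, and Tat fell by 18.2 points, the most. Bodies rose again by E18.5 in Tat, Hpd, Hgd and Gstz1, by 4.71 to 6.27 points, against 57.5% of all bodies. That second count rested on E18.5 wild-type replicates 1 and 2, since 1 body was called without replicate 1 and 0 without replicate 2, where 24.8% and 11.8% of all bodies were called as rising.

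**Figure D3:**
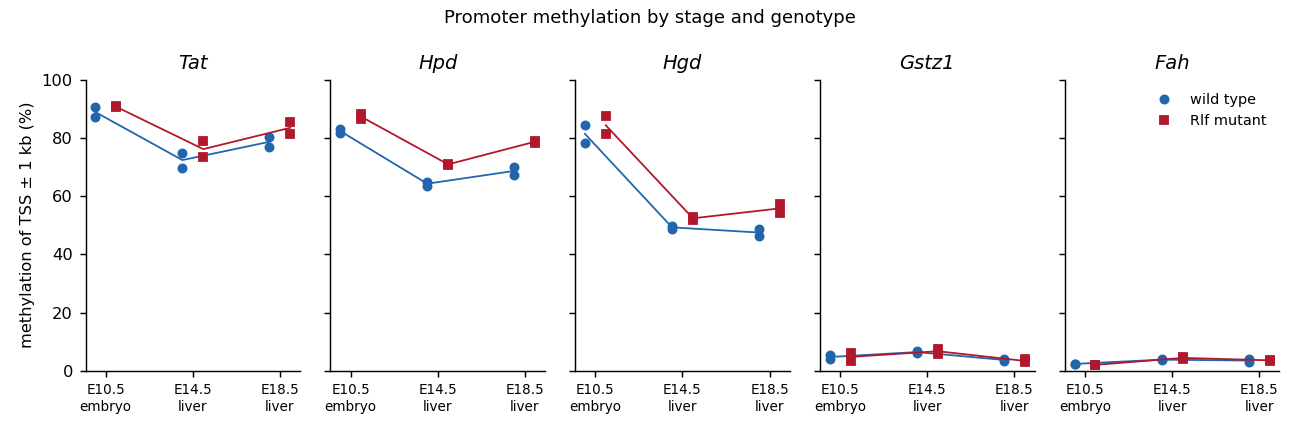
Promoter methylation (percent, TSS and 1 kb on either side) of the 5 genes in the 12 WGBS libraries by stage, with a point per library, genotype by colour and lines through the means of the 2 libraries. Tat, Hpd and Hgd are lower in liver than in embryo, Gstz1 and Fah stay under 8%, and both Hpd mutant points lie above both wild-type points at each stage.

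The Hpd promoter was more methylated in mutants than in wild type at each stage, by an amount that did not pass the test over all promoters. At E10.5 the wild-type embryos were at 81.8 and 82.9% and the mutants at 88.1 and 86.6%, over 26 CpGs. At E14.5 the wild-type livers were at 65.0 and 63.5% and the mutants at 71.1 and 70.8%, over 32 CpGs. At E18.5 the wild-type livers were at 70.1 and 67.2% and the mutants at 79.1 and 78.4%, over 30 CpGs. No mutant library overlapped a wild-type library of its stage. The differences were 4.93, 6.65 and 10.1 points, with unadjusted edgeR p of 0.0230, 0.0182 and 0.00244 and adjusted p of 0.312, 0.376 and 0.218. Among all promoters these differences stood at the 92.9th, 96.5th and 98.4th percentiles, where the median differences were 0.37, 0.49 and 0.25 points. In wild-type E14.5 liver 87.8% of promoters were less methylated than that of Hpd, and a rank among promoters of like methylation is not given. Both mutants were above both wild-type libraries in 34.7%, 36.3% and 28.2% of all promoters at the 3 stages, and at all 3 stages in 7.91%, so the order of the libraries alone is common. Called promoters made up 1.15% at E10.5, 0% at E14.5 (0 of 21074 by edgeR, 2335 at an unadjusted p under 0.05) and 0.432% at E18.5. The share at E14.5 depended on the model. With the replicate number as a block, which at E14.5 is also the sex of the livers, edgeR called 4.03%, 4.82% and 0.805%. The Hpd promoter was not among them.

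Over 1 kb on either side of the TSS, the other methylated promoters showed smaller or more variable differences. Hgd stood at 78.3 and 84.5% against 87.4 and 81.2% at E10.5, at 48.7 and 49.8% against 52.0 and 52.8% at E14.5, and at 46.4 and 48.6% against 57.4 and 54.2% at E18.5, with wild type first. The mutants were above wild type without overlap at E14.5 and E18.5, by 3.11 and 8.32 points (edgeR adjusted p = 0.665 and 0.620), and overlapped at E10.5. Tat stood at 90.5 and 87.4% against 90.6 and 90.8% at E10.5, at 69.8 and 75.0% against 78.8 and 73.5% at E14.5, and at 77.0 and 80.3% against 85.5 and 81.5% at E18.5. Its differences of 1.79, 3.77 and 4.82 points had edgeR adjusted p of 0.742, 0.647 and 0.645, and the groups overlapped at E14.5. No promoter of the 5 was called at any stage. Only Hpd had an unadjusted p under 0.05 in these promoter tests, against 12.1%, 11.1% and 8.34% of all promoters at the 3 stages. Whether the genotype difference itself changed between stages was tested in all 12 libraries. For Hpd the difference of differences was 1.47 points from E10.5 to E14.5 and 3.998 points from E14.5 to E18.5, and no member was called (edgeR, 0% and 0% of 19932 promoters, with 813 and 597 at an unadjusted p under 0.05). Within 500 bases of the TSS, Hgd differed about as much as Hpd. Its means over 6 CpGs went from 73.3 to 79.3%, from 40.4 to 47.7% and from 35.9 to 46.3% at the 3 stages, with overlap at E10.5 only. Those of Hpd over 20 CpGs went from 82.9 to 87.3%, from 62.9 to 70.0% and from 67.4 to 78.9%. The differences of Tat stayed smaller there.

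Single CpGs of the Hpd promoter varied in their difference. Of the Hpd promoter CpGs, mutants were higher by pooled reads at 19 of 26 at E10.5, 28 of 32 at E14.5 and 23 of 30 at E18.5, with median differences of 5.17, 6.16 and 9.41 points. Both mutants were above both wild-type libraries at 13, 14 and 12 of them, and below both at 1 CpG at each stage. The lowest single differences were -5.70, -4.63 and -12.6 points. At the Hgd promoter, mutants were higher by pooled reads at 7 of 11, 9 of 15 and 11 of 13 CpGs at the 3 stages. At the Tat promoter they were higher at 11 of 19, 16 of 25 and 15 of 22. The share over all CpGs of the genome is not given, and these counts carry no test. Neighbouring CpGs are often read on the same fragments and are not independent. The CpG 64 bases upstream of the TSS, within the sequence printed above, was the least methylated of those near the start. At E10.5 it went from 59.0% in wild type to 76.0% in mutants, at E14.5 from 38.6% to 56.1%, and at E18.5 from 36.5% to 71.2%. The 4 libraries at E18.5 gave 39.3 and 33.3% in wild type and 69.0 and 73.9% in mutants, on 52 reads per genotype. The CpG at -49 went from 83.3 to 92.0%, from 60.0 to 68.6% and from 50.9 to 77.8% at the 3 stages, and that at -10 from 68.1 to 75.0%, from 49.2 to 66.1% and from 50 to 68.5%. These 3 sites were picked after their values were seen and carry no test. At the unmethylated promoters of Gstz1 and Fah, the median CpG difference was 0 at each stage.

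**Figure D4:**
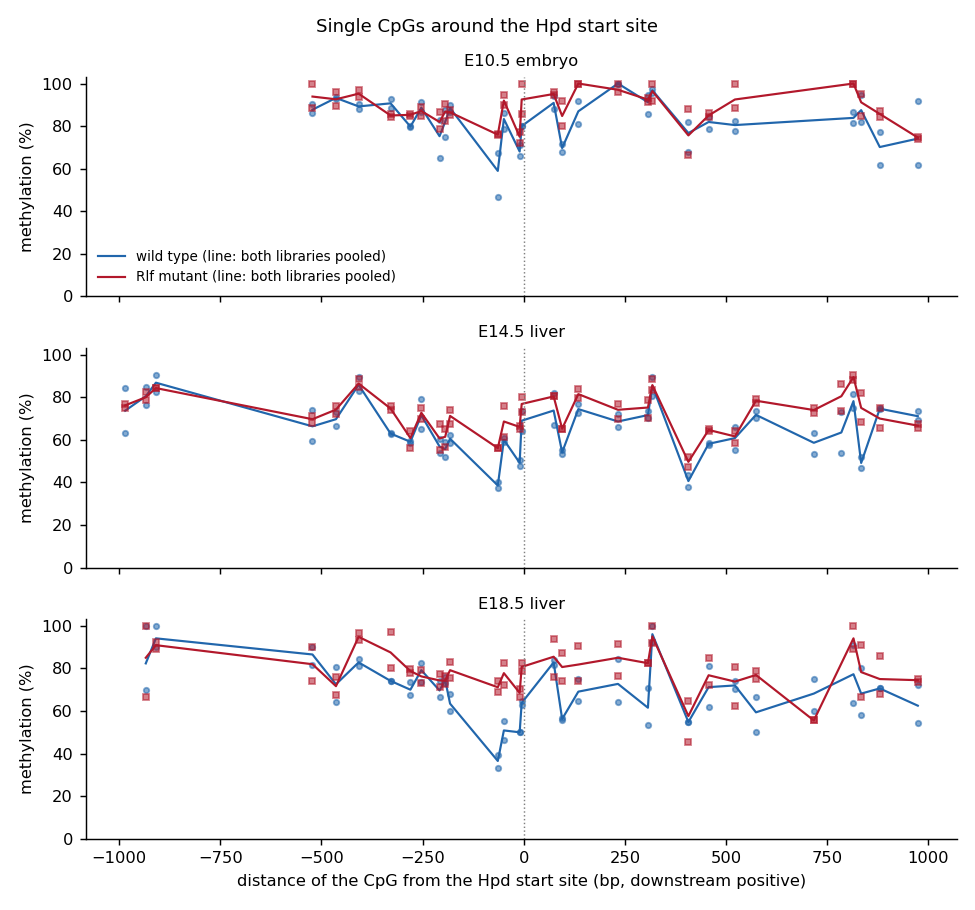
Methylation (percent) of each Hpd promoter CpG against its distance from the TSS in bases, with points for single libraries and lines for the pooled wild-type and mutant reads at E10.5, E14.5 and E18.5. The mutant line lies above the wild-type line at most CpGs, 28 of 32 at E14.5, and the dip near the TSS reaches 36.5% in wild type at E18.5.

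Averaged over the Hpd body and over its surroundings, the genotypes differed by less than at the promoter. The Hpd body averaged 76.3% in wild-type embryos, 66.1% in wild-type E14.5 liver and 70.9% in wild-type E18.5 liver, and mutants differed by -0.0015, 1.66 and 2.58 points. Both mutants lay above both wild-type libraries over the Hpd body at E14.5, as they did over those of Hgd, Gstz1 and Fah and over 43.3% of all bodies, and at E18.5, as over that of Gstz1 and 37.5% of all bodies. Over the 50 kb on either side of the TSS the wild-type means were 61.1, 55.0 and 57.2%, with differences of 0.53, 0.92 and 0.10 points. By edgeR, no body or 50 kb window of the 5 genes was called at any stage, against 12.9%, 1.22% and 0.332% of all bodies and 3.29%, 3.79% and 0.00903% of all 50 kb windows at E10.5, E14.5 and E18.5. The 50 kb window of Tat at E14.5 was the single member window with an unadjusted p under 0.05 (0.0390), against 36.7%, 29.6% and 0.664% of all 50 kb windows and 27.9%, 6.73% and 3.68% of all bodies at the 3 stages. These counts of 0 depended on single libraries. Without E10.5 wild-type replicate 2, the 50 kb window of Tat was called, as were 41.3% of all windows. Without E14.5 wild-type replicate 2, the bodies of Tat, Hgd and Gstz1 and the windows of Tat and Gstz1 were called, as were 45.8% of all bodies and 42.7% of all windows. Without E18.5 mutant replicate 2, the bodies of Tat, Hpd, Hgd and Fah were called, that of Hpd at 3.66 points (edgeR adjusted p = 0.0240), and so were the windows of all members other than Hpd, beside 63.4% of all bodies and 85.6% of all windows.

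In 1 kb tiles of the whole genome, 0.356%, 0.123% and 0.134% were called at E10.5, E14.5 and E18.5, which required a difference above 15 points. Of the 64, 81 and 68 tiles tested within 50 kb of the Hpd TSS, 0 were called by edgeR, and 2, 10 and 9 had an unadjusted p under 0.05, as did 65361 of 608846, 82049 of 909678 and 51753 of 689415 tiles of the genome at the 3 stages. Near the other 4 genes 0 of 16 to 85 tiles per gene and stage were called, with 1 to 11 at an unadjusted p under 0.05. The tile over the Hpd TSS (chr5:123632001-123633000) differed by 5.73, 7.45 and 11.5 points, with 63.1 and 60.7% in wild type against 69.5 and 69.2% in mutants at E14.5 (edgeR adjusted p = 0.351). The next tile into the gene (chr5:123631001-123632000) differed by 7.07, 10.7 and 14.0 points, at E14.5 with 59.7 and 55.4% against 68.8 and 67.7% (edgeR adjusted p = 0.240). Tiles near Hpd went in both directions, and their median difference was -0.12, 0.11 and 0.20 points. The tile chr5:123627001-123628000, 5.2 kb into the gene, had -1.13, 8.07 and 15.5 points, and at E18.5 its libraries read 59.1 and 55.3% against 72.0 and 73.4% (edgeR adjusted p = 0.217). In the opposite direction, the tile chr5:123622001-123623000 at the far end of the gene differed by -4.59, -5.30 and -10.3 points. Without E18.5 mutant replicate 2, 1 tile near Hpd and 1 near Hgd were called, as were 0.928% of all tiles.

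**Figure D5:**
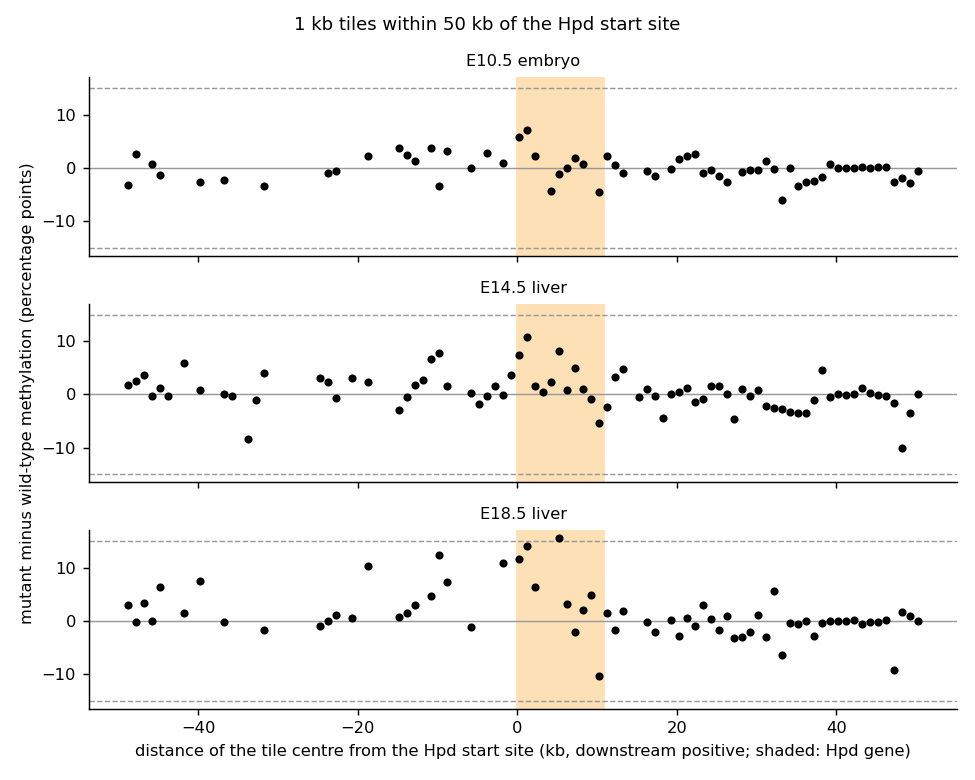
Difference in methylation (points, mutant minus wild type) of 1 kb tiles by the distance of their centre from the Hpd TSS in kb, at E10.5, E14.5 and E18.5, with dashed lines at 15 points in either direction and the gene shaded. Tiles lie on both sides of 0 across the region, and those over and just inside the start of Hpd lie above it, at 11.5 and 14.0 points at E18.5.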

How the data were processed

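Per the labels and the study's methods, the authors sequenced bisulphite-treated DNA of 12 samples, aligned the reads with Bismark and Bowtie2 to mm9 carrying FVB substitutions, lambda DNA and the reporter transgene, removed duplicates and merged strands. The authors deposited, for each CpG, counts of unconverted and converted reads and a rounded percent. RNA of 6 livers was poly(A) selected and aligned with TopHat to mm9, and the authors deposited raw counts per Ensembl gene from htseq-count without strand. The H3K4me1 libraries were not analysed here.

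Here the methylation counts were summed per window and tested with edgeR's quasi-likelihood method on methylated and unmethylated reads, with an intercept per library, after dropping CpGs under 6 reads in any library of the stage. Windows needed 5 such CpGs and tiles 8. RNA counts were filtered (filterByExpr, minimum count 10, minimum total 15), scaled by TMM and tested with edgeR. Adjustment was by Benjamini-Hochberg over all features, and calls were made at an adjusted p under 0.05. R 4.3.3, edgeR 4.0.16, DESeq2 1.42.0 and Python 3.11.15 were used, and scripts were tested on simulated data. Unconverted lambda cytosines were 0.0412 to 0.0775%. Depth was 12928313 to 14621004 counts per RNA library and 16.8 to 35.4 reads per covered CpG.

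Of the RNA gene IDs, 37168 were named from the annotation, 37 from a name table and 786 stayed unnamed. Samples were grouped by title. RNA replicates of the same number deviated together (r of 0.125, 0.226 and 0.409 over 14183 genes between wild type and mutant). Pairs of unlike number had r from -0.286 to 0.0901. Number 3 is the female of each genotype, so pairing and sex cannot be told apart there. A replicate block that pairs the numbers was fitted beside the model without it. Calls made with the block rest on a pairing that the labels do not give. Replicates of WGBS are separate samples of a group. Named genes were the 5 members, Rlf, the 4 lowest and 4 highest genes of the phenylalanine and tyrosine list, called genes of the lists of other amino acid breakdown enzymes and hepatocyte transcription factors, protein-coding genes with a TSS within 50 kb of a member, the 5 genes most like Hpd with a mean of at least 1 CPM, and called tiles. Genes passing only an unadjusted p, marker genes, the 3 CpGs and the 4 tiles near Hpd, none of them called, were named after their values were seen. Some genes of the phenylalanine and tyrosine list are not reported here. The members, lists and tests were chosen with earlier results of these data known. Alternatives were other size factors, no filter, sex as covariate, males only, DESeq2, other read minimums and window sizes, the replicate block and leaving out each replicate.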

Additional observations from a re-analysis of the deposited data

How the results depend on the processing

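The Hpd RNA difference ranged from -6.74 to -6.25 on the log2 scale over the alternatives. Its direction could hardly turn, because this contrast selected Hpd and its groups lie far apart. The Hpd promoter was higher in mutants in all 30 alternatives, most of which could not turn that sign. Its groups did not overlap, so leaving out a library keeps their order. The block leaves the difference in points unchanged, and the 5′ end of Hpd is its TSS. The Hpd promoter was not called with other read minimums, the smaller window or the block. The mean over single CpGs, also among the 30, carried no test. The 197 RNA calls became 532 of 21942 genes without the filter on low counts, 104 in males alone, 257 with DESeq2 and 66 to 224 when a replicate was left out. With the replicate block there were 460 RNA calls. The partner enzymes called were 1 (Hgd), 2 with the replicate block and with DESeq2, 0 in males alone, and 0 to 1 when a replicate was left out. The block also added the calls of Otc, Marco and Itga2b named above, and of 1 member's 50 kb window at E10.5 (Tat, adjusted p = 0.0228 by edgeR, with 51.3% of all windows called), and changed no other call named in the report. For WGBS, same-numbered libraries deviated with r of 0.0993 at E10.5, 0.267 at E14.5 (0.0119 on autosomes) and -0.0478 at E18.5 over gene bodies, and with 2 pairs per stage the numbers were not taken to pair the samples. At E14.5 the numbers also mark sex in both genotypes. There 1016 of 21074 promoters (4.82%) were called by edgeR with the block, against 0 without it.

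Leaving out a WGBS replicate gave 0 to 1 member windows of 50 kb called at E10.5, 0 to 2 at E14.5 and 0 to 4 at E18.5, where the fits with the most member calls called 41.3%, 42.7% and 85.6% of all windows, 0 to 3 bodies at E14.5 and 0 to 4 at E18.5, 0 to 2 tiles at E18.5, and 0 to 4 bodies rising from E14.5 to E18.5, where the mutant libraries gave 2. A fit with 1 sample in a group assumes that it varies like the other. Differences that turned sign were all small. The Hgd promoter at E10.5 ranged from -0.194 to 6.04 points, the Hpd body at E10.5 from -2.21 to 2.21 points (0.179 at a minimum of 10 reads), and the 50 kb around Hpd from -0.324 to 1.39 points at E10.5, from -0.0142 to 1.84 at E14.5 and from -1.11 to 1.32 at E18.5 (-0.157 at a minimum of 10 reads). From E14.5 to E18.5 the Hgd promoter differed by 0.986 points in mutant libraries, and the Fah promoter by -0.729 to 0.170 points. The cause was not tested. Over the alternatives, counts of all called features ranged widely, for example from 0 to 1016 promoters, 52 to 8780 bodies and 768 to 3557 tiles at E14.5. With 2 libraries per group, WGBS depth and number limit what small differences could pass.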

Other observations

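Promoter methylation of the other amino acid enzymes called in RNA is given here as values, with wild type first. The promoter of Haao, which fell in RNA, was at 83.3 and 85.3% against 85.1 and 84.2% at E10.5, at 58.0 and 59.5% against 63.1 and 61.4% at E14.5, and at 51.0 and 46.1% against 63.8 and 56.4% at E18.5, so that its groups overlapped in embryos and did not in livers. The promoter of Hal, whose RNA also fell, was at 74.5 and 77.7% against 75 and 81.5% at E10.5, at 63.5 and 66.7% against 65.9 and 66.4% at E14.5, and at 62.4 and 56.4% against 66.0 and 56.8% at E18.5, with overlap at each stage. That of Csad, whose RNA rose, was at 79.6 and 77.9% against 81.9 and 79.9% at E10.5, where both mutants were above both wild-type libraries. It was at 65.69 and 65.10% against 64.30 and 65.05% at E14.5, where both mutants were below both, and at 67.5 and 61.2% against 67.5 and 64.0% at E18.5. That of Ivd, whose RNA fell, was at 8.61 and 6.96% against 5.93 and 7.21% at E10.5, at 11.8 and 11.7% against 11.3 and 12.3% at E14.5, and at 6.18 and 7.82% against 8.43 and 6.16% at E18.5. The promoter of Timd2, whose RNA over the 6 livers was among the most like that of Hpd, was at 91.6 and 90.8% against 94.5 and 91.8% at E10.5. It was at 63.8 and 60.6% against 65.5 and 68.1% in E14.5 liver and at 73.0 and 59.8% against 77.1 and 77.2% in E18.5 liver. Its mutants were above wild type without overlap at each stage. The promoters of H6pd, Snx11, Dusp11, Rfc5 and Psmd9 were under 11% in all libraries. No test is given for these values. Both mutants lay above both wild-type libraries in 34.7% of all promoters at E10.5, 36.3% at E14.5 and 28.2% at E18.5, and at all 3 stages in 7.91%. The share with both mutants below both, the order of Csad at E14.5, is not given.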
